A study of Homo sapiens
Mus musculus with 2 samples.

Results

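The cells described here were EL4 cells, a mouse T lymphoma line, that carried the most or the fewest transcripts of 6 genes of late cell division. EL4 was 1 of 4 lymphocyte lines mixed in equal parts for 2 Drop-seq libraries, beside the human T cell lines Jurkat and TALL-104 and the mouse B cell line IVA12. Drop-seq captures single cells in droplets with barcoded beads and counts unique molecular identifiers (UMIs), so that PCR copies of 1 molecule are counted once. Cells were loaded at 150 or 300 cells per µl with 1 library each, and no test between the concentrations was possible. The paper describes no treatment of EL4 cells beyond their culture, while TALL-104 cells were grown with IL-2.

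Of 6000 barcodes in both libraries, 1043 held at least 2000 UMIs and 376 of these met the rule for EL4 cells, 43 at 150 and 333 at 300 cells per µl. The rule asked for at least 90% mouse UMIs, at least 2 UMIs on the T cell genes Cd3e, Cd3d, Cd3g and Lck, and more of these than UMIs on the B lineage genes Mzb1, Pou2af1, Tnfrsf17 and Derl3. Each EL4 cell was given a score, the percentage of its mouse UMIs that lay on Mki67, Top2a, Ccnb1, Cdc20, Ube2c and Cenpf. Cells at or above the 75th percentile of their library formed the high-score arm and cells at or below the 25th percentile the low-score arm. The arms held 11 cells each at 150 and 84 cells each at 300 cells per µl, 190 cells in all. Both the line and the arms were thus chosen on measured values, and the values of the genes used for the choice are a description with no test.

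A dividing cell copies its DNA in S phase, passes through G2 and separates its chromosomes in mitosis (M). Transcripts for the mitotic machinery build up through G2 and peak near mitosis, whereas transcripts for licensing and copying DNA peak around the start of S phase. Among the score genes, Mki67 encodes the Ki-67 coat of mitotic chromosomes, Top2a the topoisomerase that untangles sister DNA, Ccnb1 cyclin B1, Cdc20 and Ube2c an activator and the ubiquitin-conjugating enzyme of the anaphase-promoting complex, and Cenpf a kinetochore protein. EL4 is a transformed line that proliferates in culture. The score counts transcripts, and neither DNA content nor chromosome condensation was measured, so the arms are called high-score and low-score below and not mitotic and non-mitotic.

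Genes were deposited as Ensembl identifiers. The mouse symbols used here pair with them through a list written by hand, which was not checked against an annotation of the mm10 build, and genes outside that list are given by identifier alone.

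The score limits fell within a continuous range. The 75th percentile was 0.356% of mouse UMIs at 150 and 0.357% at 300 cells per µl, and the 25th percentile 0.0869% and 0.103%. At 150 cells per µl the lowest cell of the high-score arm stood at 0.359% and the highest cell outside it at 0.354%, and at 300 cells per µl both lay at 0.357% and 0.356%. Just inside and just outside the low-score arm, the values were 0.0833% and 0.0905% at 150 and 0.103% and 0.105% at 300 cells per µl. Within 10% of the upper limit lay 7 of 43 and 33 of 333 cells, and within 10% of the lower limit 2 and 26. The arms are therefore ends of a range without a gap between them.

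The EL4 cells carried T cell transcripts in both arms. Thy1, a surface glycoprotein of T cells, stood at 955 and 831 CPM (UMIs per 1000000 mouse UMIs) in the high-score and low-score arm at 150 cells per µl and at 1063 and 1061 at 300. Cd4, Cd8a and Satb1 had 0 UMIs in every arm, so the T cell list of 19 genes, which includes the 4 used to choose the cells, was represented by 16. The 15 genes not used for the choice summed to between 3227 and 3839 CPM in the EL4 arms and to at most 139 in the IVA12 arms. Of 13 B and plasma cell genes, 4 had been used to choose the cells, and the other 9 summed to between 63.3 and 159 CPM in the EL4 arms against 5479 to 6796 in the IVA12 arms. Of these 9, Cd79a and Ighm were at 0 UMIs in all EL4 arms. They do not separate the lines, as Ighm was also at 0 in all IVA12 arms. Cd79a held 1 UMI in the IVA12 high-score arm at 300 cells per µl and 0 in the other IVA12 arms. Xbp1 was present in EL4, at 48.7 and 48.3 CPM in the high-score and low-score arm at 150 and 72.7 and 82.8 at 300 cells per µl. In the IVA12 arms it stood at 416 to 639 CPM. The 2 libraries shared 1 barcode, which belonged to no EL4 cell.

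All 6 score genes were higher in the high-score arm, as the choice of cells fixed. Top2a stood at 1573 CPM in the high-score and 174 in the low-score arm at 150 cells per µl, and at 1690 and 228 at 300. Ube2c stood at 808 against 29.0 and at 672 against 23.2. When each gene was left out of the score and the arms were chosen on the other 5, the ratio of the arms for the gene left out lay between 2.15 for Cdc20 and 14.8 for Ube2c at 150 cells per µl. The range in the other library was 2.61 for Cdc20 to 13.2 for Ube2c. Each score gene was thus higher in cells picked by the other 5 in both libraries, with Cdc20 the least separated.

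The low-score arm was not empty of these transcripts. With every cell thinned to 1800 mouse UMIs, Mki67 was detected in 29.8% of 84 low-score cells at 300 cells per µl (95% exact binomial interval 20.3 to 40.7) and in 83.3% of high-score cells (73.6 to 90.6). Unthinned, the shares were 63.1% and 100%, with median depths of 6858.5 and 9315.5 UMIs. In 282 human cells of the same library, which should lack mouse transcripts and had a median of 3952 UMIs, 15.2% held a mouse Mki67 UMI. For Ube2c the thinned shares were 7.14% of low-score cells (2.67 to 14.9) and 70.2% of high-score cells (59.3 to 79.7), and the unthinned shares 13.1% and 95.2%, beside 4.61% of the unthinned human cells. At 150 cells per µl the unthinned Ube2c shares were 27.3% and 90.9% of 11 cells each, beside 1.22% of 82 human cells with a median of 6411 UMIs. Both genes belong to the score, so these shares describe the chosen cells, and the intervals cover counting error only.

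The high-score arm also held deeper cells. The median was 16734 UMIs in the high-score and 9497 in the low-score arm at 150 cells per µl, a ratio of 1.76, and 9315.5 and 6858.5 at 300, a ratio of 1.36. At a fixed 1800 mouse UMIs the median number of genes per cell was 1105 and 1073 at 150 cells per µl and 1161 and 1138 at 300. Across cells, Spearman's rho of score and depth was 0.35 over 43 cells and 0.26 over 333 cells, as a description of cells that share a library. The human share of UMIs had a median of 0.271% and 0.469% in the high-score and low-score arm at 150 cells per µl and 0.346% and 0.454% at 300. Droplets with a pair of EL4 cells could not be recognised, and their part in the depth difference was not tested.

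**Figure D1:**
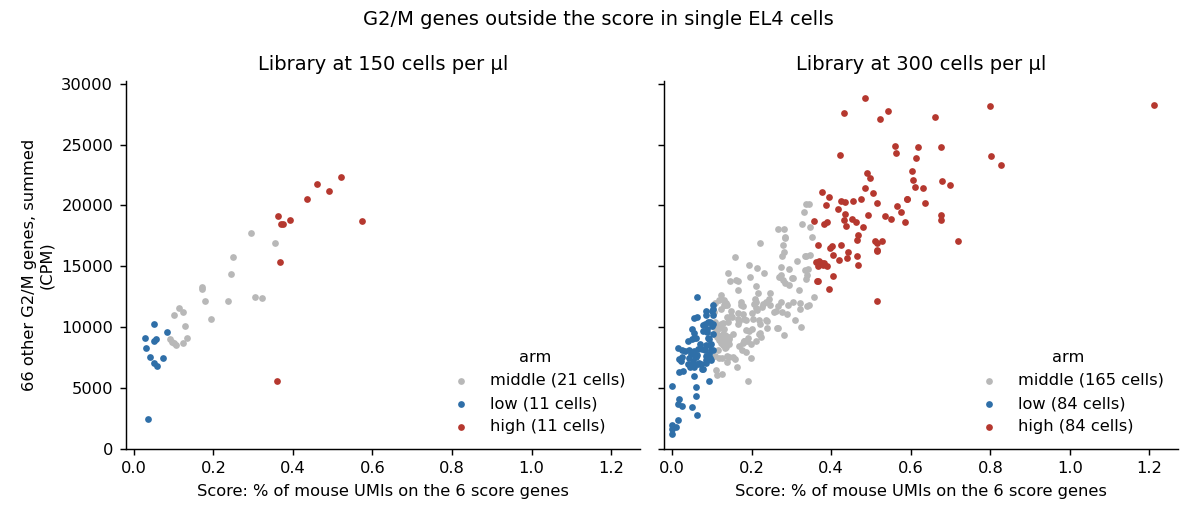
Each point is 1 EL4 cell, with the score (percentage of mouse UMIs on the 6 score genes) on the x axis and the summed level of 66 other G2/M genes (CPM over mouse UMIs outside the score genes) on the y axis, for each library. The G2/M level rises with the score in both panels, the colours mark the 3 ranges of the score, and 1 high-score cell at 150 cells per µl stands low at 5602 CPM.

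To ask which genes beyond the score differed between the arms, UMIs were summed over the cells of each arm and library, giving 4 sums of 103515 to 894621 mouse UMIs. In the high-score arm at 150 cells per µl, 1 of 11 cells held 45913 of the 205324 mouse UMIs, so this sum leans on that cell. The 6 score genes were left out of the test and of the totals, and the CPM below are taken over the remaining mouse UMIs. The counts of the tested genes did not choose the arms but come from the same cells and share their totals. Each arm had 1 sum in each of the 2 libraries of the 4-line mixture. The fit shared 1 spread over all genes, and this spread may be technical. The p-values and standard errors (SE) thus rest on it and on the counts, not on each gene's own spread between libraries. For Cks1b the log2 fold changes in the separate libraries were -0.31 and 0.33, with an SE of 0.18.

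Genes of G2 and mitosis made up the largest named group of higher genes. Of 5764 genes tested, 125 were higher in the high-score arm, 2.17% of those tested, and 34 were lower, 0.59%, at an adjusted p under 0.05 (edgeR quasi-likelihood test, Benjamini-Hochberg). At an unadjusted p under 0.05 the counts were 356 and 281, and 157 of the 159 called genes had the same sign in both libraries. From a list of G2/M genes, without the score genes, 64 of 66 passed the filter on low counts, 50 of these were higher and 0 lower. The median log2 fold change of the 64 was 1.51, against -0.0049 over all genes tested, and all 64 were above 0. In 62 of them both high-score sums lay above both low-score sums, which held for 19.3% of all genes tested. For 17 of the 64 a low-score sum was under the filter in at least 1 library, and for 8 of these in both, so that the 8 passed only through the arm where they are high. The counts are therefore no support on their own. The list was chosen with earlier results of these data known and shares its biology with the score genes.

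The call counts differed between settings. With DESeq2 on the same sums, 25 genes were higher, 18 of them in the G2/M list, and 1 was lower, and the cause of the difference between the tools was not tested. With every cell thinned to 1800 mouse UMIs before summing, which leaves far fewer UMIs, 10 were higher and 0 lower, while the median log2 fold change of the G2/M genes tested there was 1.52.

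Kinases, cyclins and their regulators covered a wide range of differences, with 9 of 14 tested genes higher. For 6 of the 14 a low-score sum was under the filter in at least 1 library, and for 3 of these in both. Cdk1, the kinase that drives entry into mitosis, stood at 421 CPM in the high-score and 67.7 in the low-score arm at 150 cells per µl, and at 457 and 104 at 300. The sums of the arms did not overlap, and the log2 fold change was 2.19 ± 0.21 (SE; adjusted p = 1.50e-21). Plk1, the polo-like kinase of spindle assembly and mitotic exit, stood at 367 against 9.67 and at 310 against 46.4, a log2 fold change of 2.97 ± 0.27. The lowest Plk1 sum rested on 1 UMI. Aurka, the centrosomal Aurora kinase, had 29 and 112 UMIs in the high-score sums and 0 and 13 in the low-score sums, and Aurkb, the kinase of the chromosomal passenger complex, rose by 2.19 ± 0.28 on the log2 scale. Both low-score sums of Aurka were under the filter, so it was tested only through the high-score arm. Ccnf, the F-box protein cyclin F, and Ccna2, cyclin A2, rose by 2.78 ± 0.50 and 1.67 ± 0.27.

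Some regulators were higher in both libraries without passing the test. Ccnb2, the paralog of the score gene Ccnb1, stood at 259 against 155 CPM at 150 and at 242 against 171 at 300 cells per µl, a log2 fold change of 0.53 ± 0.21 that missed the threshold (adjusted p = 0.224). The sums of its arms did not overlap, as for Pttg1, the securin that holds separase inactive, which stood at 303 against 251 and 268 against 164 (log2 fold change 0.55 ± 0.20, adjusted p = 0.152). The CDK subunit Cks1b stood at 338 against 406 and at 325 against 253, so its sums overlapped and its libraries had opposite signs. Its relative Cks2 rose, from 396 to 675 and from 181 to 426 CPM (log2 fold change 1.04 ± 0.17). Cks1b, Cks2 and Pttg1 belong to families with similar copies, among which reads may have been split.

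Every tested gene of the kinetochore and the spindle checkpoint was higher, 12 of 12, with a median log2 fold change of 1.44. For 1 of the 12 the low-score sum of 1 library was under the filter. Cenpe, the kinetochore motor that moves chromosomes to the spindle equator, stood at 386 against 29.0 CPM at 150 and at 337 against 46.4 at 300 cells per µl (log2 fold change 2.96 ± 0.26). Incenp, the scaffold of the chromosomal passenger complex, rose from 126 to 347 and from 103 to 434, and its partners Cdca8 (borealin) and Birc5 (survivin) rose less, by 1.38 ± 0.21 and 1.19 ± 0.21 on the log2 scale. Cenpa, the histone H3 variant that marks centromeres, rose by 1.70 ± 0.21. The checkpoint genes Bub1, Bub1b and Mad2l1 rose by 1.34 ± 0.24, 1.63 ± 0.29 and 0.82 ± 0.22, the last being the smallest change of the group.

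Among spindle and motor proteins, 13 of 16 tested genes were higher, with a median log2 fold change of 1.82. For 5 of the 16 a low-score sum was under the filter in at least 1 library, and for 3 of these in both. Nusap1, a microtubule-bundling protein around chromosomes, had the largest fold change of any called gene with at least 100 CPM in both high-score sums, at 298 against 9.67 CPM at 150 and 189 against 11.6 at 300 cells per µl. Its log2 fold change was 4.13 ± 0.38, and its low-score sums held 1 and 7 UMIs, both under the filter, so that it was tested only through the high-score arm. Hmmr, a spindle assembly factor, stood at 445 against 48.3 and at 504 against 59.6, and its log2 fold changes in the separate libraries, 3.05 and 2.97, differed little. Kif11, the plus-end motor that pushes spindle poles apart, and Tpx2, the activator of Aurora A on the spindle, rose by 2.34 ± 0.22 and 2.34 ± 0.25. Dlgap5, Ckap2 and Gtse1 did not pass, with log2 fold changes of 0.62, 0.93 and 0.96.

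All 6 genes of cytokinesis, the division of the cytoplasm, were higher. For 4 of the 6 a low-score sum was under the filter in at least 1 library, and for 1 of these in both. Prc1, which bundles microtubules between the separating chromosomes, stood at 274 against 19.3 CPM at 150 and at 295 against 29.8 at 300 cells per µl (log2 fold change 3.34 ± 0.30). Kif23 and Racgap1, the 2 parts of centralspindlin, rose by 2.51 ± 0.25 and 1.55 ± 0.22. Anln, the actin-binding anillin of the contractile ring, showed the smallest change of the group at 1.30 ± 0.29.

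Chromatin and nuclear envelope genes of the list changed less, with 4 of 10 higher and a median log2 fold change of 0.61. Smc4 and Smc2, the core of condensin, rose by 1.45 ± 0.17 and 1.06 ± 0.19, and Hmgb2, an abundant DNA-bending protein, rose from 1807 to 2788 CPM at 150 and from 1300 to 2235 at 300 cells per µl. The nuclear envelope gene Tmpo rose by 0.61 ± 0.19, close to the threshold (adjusted p = 0.0428). Cbx5, heterochromatin protein 1 alpha, stood at 553 against 416 and at 412 against 265, with overlapping sums (adjusted p = 0.0524), and Anp32e, a histone chaperone, at 763 against 657 and 690 against 586 (adjusted p = 0.634). Of the 6 remaining genes of the list all rose, with Arl6ip1, a membrane-shaping protein of the endoplasmic reticulum, at 1130 against 251 and 1212 against 325 CPM. For 1 of these 6 both low-score sums were under the filter.

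**Figure D2:**
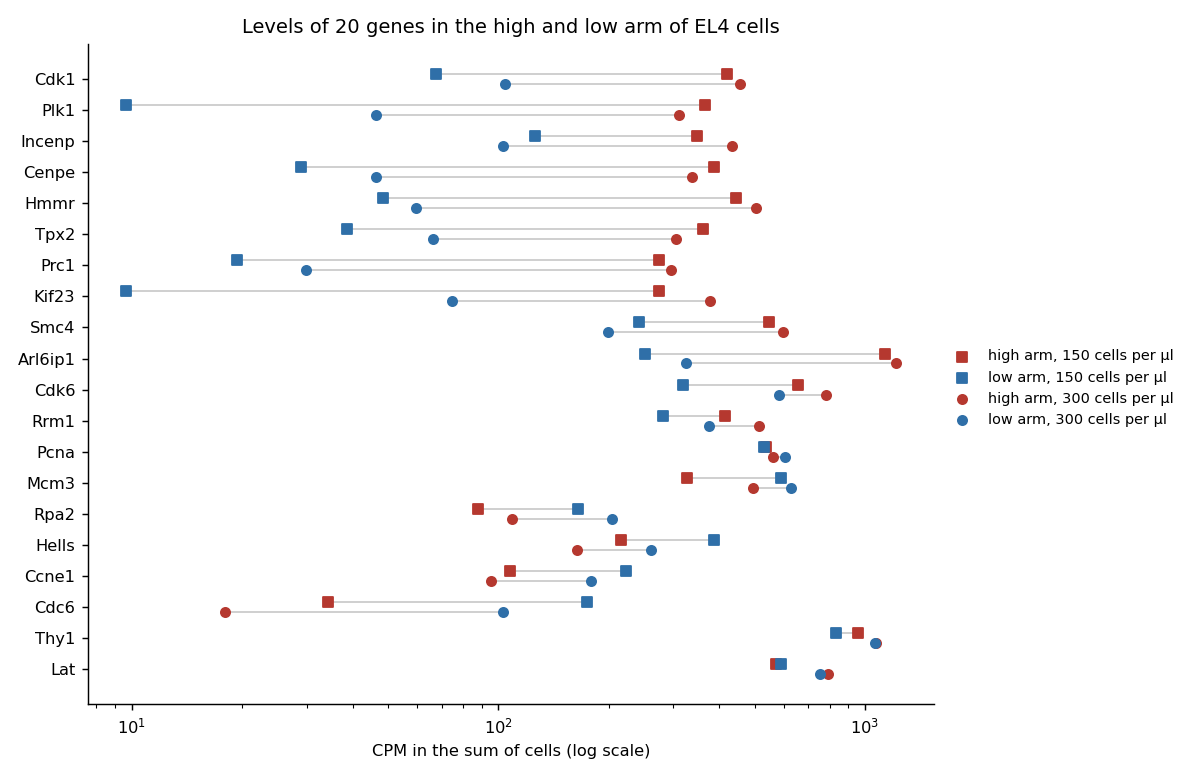
Levels of 20 genes in the 4 sums of EL4 cells (CPM over mouse UMIs outside the score genes, log scale), with red for the high-score and blue for the low-score arm, squares for 150 and circles for 300 cells per µl. From Cdk1 to Arl6ip1 both red points lie right of both blue points, for Mcm3, Rpa2, Hells, Ccne1 and Cdc6 they lie left, and for Thy1, Lat and Pcna the arms overlap.

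Genes of DNA replication leaned lower in the high-score arm, though few passed the test. Of 47 S phase genes, 46 were tested, 0 were higher and 7 lower: Cdc6, Mcm3, Rpa2, Ung, Uhrf1, Wdr76 and Hells. The median log2 fold change of the 46 was -0.33, with 8 above 0, and in 21 genes both high-score sums lay below both low-score sums, beside 14.9% of all genes tested. Cdc6, which loads the MCM helicase at replication origins, stood at 34.2 against 174 CPM at 150 and at 18.0 against 103 at 300 cells per µl, a 5.57-fold lower level in the high-score arm (log2 fold change -2.48 ± 0.37, adjusted p = 4.61e-09). Ung, the uracil-DNA glycosylase of base excision repair, stood at 9.78 against 67.7 and at 20.2 against 128 (log2 fold change -2.68 ± 0.40). Both genes were lower in the high-score arm of each library, where the sums held 7 and 16 UMIs for Cdc6 and 2 and 18 for Ung. Both Ung sums in that arm were under the filter, so Ung was tested only through the low-score arm.

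The other 5 fell by less. Rpa2, a subunit of the single-strand binding protein RPA, stood at 88.0 against 164 and at 109 against 204 CPM, and the helicase-like gene Hells at 215 against 387 and 164 against 260. The MCM subunit Mcm3 stood at 328 against 590 and at 493 against 628 (log2 fold change -0.52 ± 0.15). The count of S phase genes called lower ranged from 0 to 15 over the alternative settings, with 0 for the top and bottom 10% of the score and 15 when Top2a was left out of the score.

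Several abundant replication genes did not differ detectably. Pcna, the sliding clamp of DNA polymerases, stood at 538 against 532 and at 562 against 606 CPM (log2 fold change -0.10 ± 0.14, adjusted p = 0.893). The 2 ribonucleotide reductase subunits pointed in opposite directions without passing, Rrm1 with a log2 fold change of 0.45 ± 0.16 (adjusted p = 0.151) and Rrm2 with -0.23 ± 0.15 (adjusted p = 0.635). Tyms, thymidylate synthase, had opposite signs in the 2 libraries.

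Genes that control G1 were split. Of 11 listed, 9 were tested, and Ccne1, cyclin E1 of the G1 to S transition, was lower at 108 against 222 CPM at 150 and 95.5 against 179 at 300 cells per µl (log2 fold change -0.97 ± 0.24). Cdkn1a, the CDK inhibitor p21, was lower as well, at 48.9 against 67.7 and 39.3 against 139 (log2 fold change -1.62 ± 0.29), with most of the difference in the 300 cells per µl library. Cdk6, a partner of D-type cyclins, was higher, at 655 against 319 and 782 against 583 (log2 fold change 0.55 ± 0.14). The counts of 2 lower and 1 higher fell to 0 calls in all with DESeq2, with the top and bottom 10% of the score and with Ube2c left out of the score.

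T cell identity and growth genes were not called. Of the T cell genes that had not been used to choose the cells, 12 were tested and 0 passed, with 1 higher and 1 lower at an unadjusted p under 0.05. DESeq2 called 0 of the 12 and gave 4 no adjusted p. The median log2 fold change of the 12 was 0.045. Thy1 had a log2 fold change of 0.04 ± 0.12 and Lat, the adaptor of T cell receptor signalling, 0.01 ± 0.13. Not all were flat, and the values that follow are CPM over all mouse UMIs. Cd28 stood at 312 against 164 at 150 and 283 against 227 at 300 cells per µl, and Ptprc at 692 against 628 and 683 against 558. Tcf7 was lower in the high-score arm, at 438 against 560 and 444 against 616. The sums of these genes did not overlap between the arms. For the 16 tested growth genes, which cover MYC, the nucleolus and glycolysis, 0 passed, 1 was lower at an unadjusted p under 0.05 and 0 passed in DESeq2, with a median log2 fold change of -0.14. The abundant nucleolar gene Npm1 stood at 3165 against 3402 and at 3212 against 3469 CPM, a difference that did not pass (adjusted p = 0.555). The 2 tested B cell genes not used for the choice, Xbp1 and Jchain, did not pass at either p, and DESeq2 gave neither an adjusted p.

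The abundant tubulin and chromatin genes gave 3 of 6 higher. Tuba1b and Tubb5, the main alpha and beta tubulins, rose by 0.55 ± 0.09 and 0.83 ± 0.11 on the log2 scale, and H2afx, the histone variant phosphorylated at DNA breaks, by 1.55 ± 0.29. Stmn1, Hmgb1 and H2afz did not pass, and Hmgb1, at 1839 against 1885 and 953 against 939 CPM, had a log2 fold change of -0.04 ± 0.10. Tubulin and HMGB genes have near-identical copies, so their counts are uncertain. Of 7 tested genes encoded by mitochondrial DNA, mt-Cytb was lower (log2 fold change -0.29 ± 0.08), mostly in the 150 cells per µl library, and its sums overlapped.

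Of the 125 higher genes, 71 were in none of the lists, and of the 34 lower genes 24 were in none. Among those with at least 100 CPM in the higher arm of both libraries, the largest increases were in ENSMUSG00000018362, at 1027 against 145 CPM at 150 and 655 against 89.4 at 300 cells per µl (log2 fold change 2.83 ± 0.19), and in ENSMUSG00000020235, at 122 against 19.3 and 136 against 21.5 (log2 fold change 2.62 ± 0.34). Both low-score sums of ENSMUSG00000020235 were under the filter, so it was tested only through the high-score arm. On the lower side the largest decrease was in ENSMUSG00000072582, at 53.8 against 106 and 67.4 against 129, and the smallest adjusted p of any lower gene belonged to ENSMUSG00000026864, at 548 against 1440 and 873 against 1290 (log2 fold change -0.87 ± 0.12). These 4 genes had sums that did not overlap between the arms.

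The course over all EL4 cells was gradual for G2/M genes. Over the 4 quartiles of the score, the 66 G2/M genes summed to 8303, 9923, 13301 and 19395 CPM at 150 cells per µl and to 7769, 9841, 13337 and 19213 at 300. The 47 S phase genes summed to 9066, 9215, 8281 and 6892 and to 9032, 10271, 8786 and 7617, highest in the second quartile of both libraries and lowest in the fourth. Across cells, Spearman's rho of the score was 0.84 and 0.87 with the G2/M level and -0.39 and -0.26 with the S phase level, over 43 and 333 cells that share a library. Single cells of the high-score arm at 300 cells per µl ranged from 12164 to 28850 CPM of G2/M genes with a median of 19181, and those of the low-score arm from 1240 to 12443 with a median of 7801, so the arms overlapped slightly. At 150 cells per µl they ranged from 5602 to 22310 (median 18826) and from 2468 to 10296 (median 8258).

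**Figure D3:**
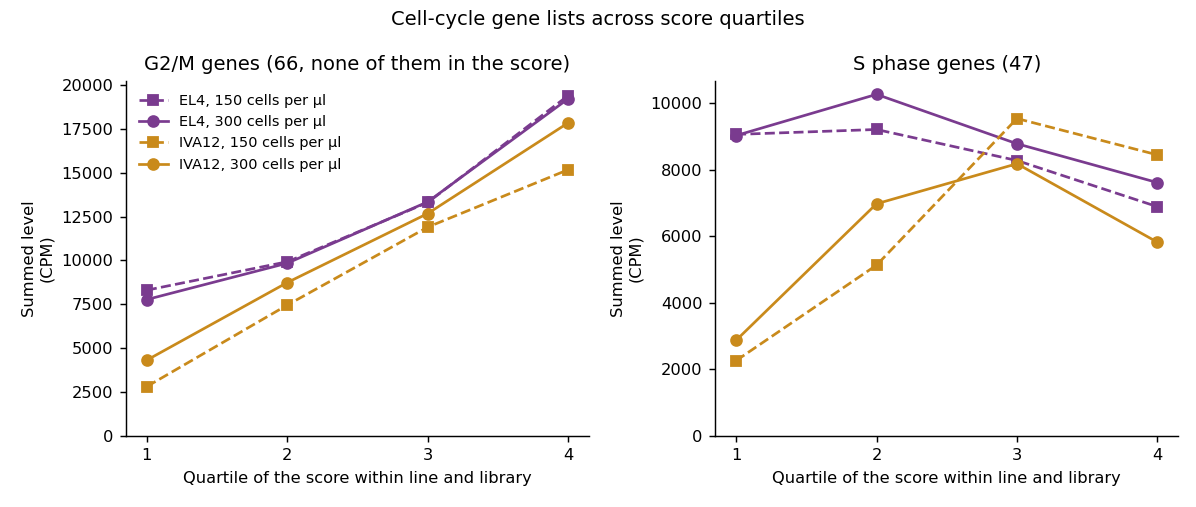
Summed levels of the 66 G2/M genes and the 47 S phase genes (CPM over mouse UMIs outside the score genes) over the 4 quartiles of the score, with EL4 in purple, IVA12 in orange, dashed lines for 150 and full lines for 300 cells per µl. G2/M levels rise over the quartiles in all 4 lines, while S phase levels start at 9066 and 9032 CPM in EL4 and at 2261 and 2872 in IVA12.

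The S phase course differed in IVA12 cells, the other mouse line of the mixture. IVA12 cells were chosen by the mirrored rule (30 and 234 cells, with arms of 8 and 59 cells each). Their S phase genes summed to 2261, 5133, 9544 and 8451 CPM over the quartiles at 150 cells per µl and to 2872, 6980, 8184 and 5824 at 300. In these pooled sums the IVA12 low-score arm thus held low S phase levels, and the EL4 low-score arm did not. Single cells overlapped. At 300 cells per µl, EL4 low-score cells ranged from 272 to 17602 CPM (median 9589) and IVA12 low-score cells from 707 to 9025 (median 2284). At 150 the ranges were 705 to 13552 and 738 to 10093. The arms were cut within each line and did not span the same scores, with 0.0127% and 0.0276% of mouse UMIs on the score genes in the pooled IVA12 low-score arms against 0.0512% and 0.0651% in EL4.

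The difference between the lines in the change from low-score to high-score arm was tested in 1 fit of all 8 sums. Of 6417 genes tested, the change was smaller or more negative in EL4 for 73, 1.14%, and larger for 16, 0.249%. The 73 included 23 of 47 S phase genes, 15 of 66 G2/M genes and 4 of 6 tubulin and chromatin genes. The S phase genes had a median log2 fold change of -0.35 in EL4 and 1.27 in IVA12, with 46 of 47 differences below 0, and the G2/M genes 1.50 and 2.62. With cells thinned to 1800 mouse UMIs before scoring, 0 genes of either list were called, although the S phase medians were -0.28 and 0.72 and 47 of 47 differences lay below 0. With DESeq2, 1 gene of each list was called.

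Rrm2, the small subunit of ribonucleotide reductase, had the smallest p among the S phase genes for this difference. It stood at 406 against 425 and 438 against 520 CPM in the EL4 arms and at 321 against 16.9 and 218 against 30.2 in the IVA12 arms. The IVA12 low-score values rested on few Rrm2 UMIs, in sums of 118561 and 463571 mouse UMIs from 8 and 59 cells. The log2 fold changes differed by -3.31 ± 0.40 (edgeR, adjusted p = 2.05e-13). Clspn, the checkpoint adaptor claspin, differed by -3.12 ± 0.48, and Mcm3 by -1.90 ± 0.32. Hmgb2 rose in both lines, from 177 to 1660 and from 252 to 1306 CPM in IVA12, and its changes differed by -1.90 ± 0.22. Cdk1 showed 0 and 7 UMIs in the IVA12 low-score sums against 7 and 63 in EL4. For Hmmr and Plk1 no difference between the lines passed (adjusted p = 0.591 and 0.109), with differences of -0.90 ± 0.48 and -1.95 ± 0.64.

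**Figure D4:**
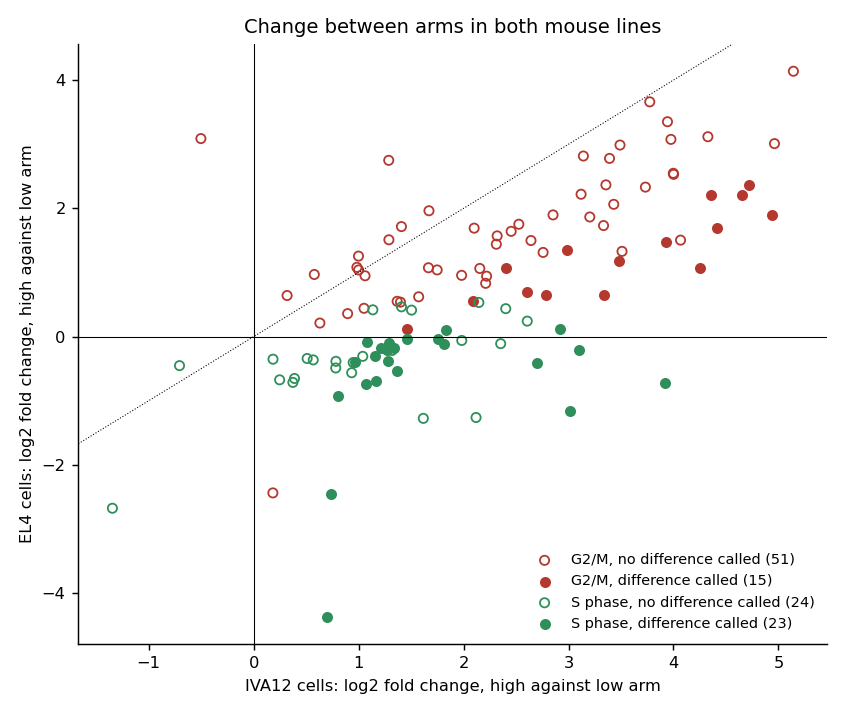
Fitted log2 fold change between high-score and low-score arm in IVA12 cells (x axis) and EL4 cells (y axis) for the 66 G2/M genes in red and the 47 S phase genes in green, with filled points where the difference between lines passed (15 and 23 genes) and a dotted line of equal change. Most green points lie right of 0 and at or below 0 on the y axis, and most red points lie below the dotted line.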

How the data were processed

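The authors deposited 1 table of whole-number UMI counts per library. Per the study's methods, the counts were made with Drop-seq tools and STAR on a joint hg19 and mm10 reference. The submitters' processing notes give STAR 2.4.2a and also name Cell Ranger 1.2.0. In the methods, cellRanger_1.2.0 is the name of that reference. The methods describe reads downsampled to a common depth, and the sources do not say whether the deposited counts came from these. The tables held 2398956 and 8707135 UMIs over 2000 and 4000 barcodes. Cells were chosen, scored and summed with Python 3.11.15 (numpy 2.4.6, pandas 2.3.3, scipy 1.17.1), and the sums tested in R 4.3.3 with edgeR 4.0.16 (quasi-likelihood, TMM, filterByExpr by arm, library as a block, Benjamini-Hochberg over all genes). The filter kept genes at or above 24.7 CPM (UMIs per 1000000) in at least 2 sums, a limit equal to 10 UMIs at the median total. The default minimum of filterByExpr for the UMIs over all sums also applied. The fit shared 1 quasi-likelihood spread over all genes. Each SE was derived from the test, as the absolute log2 fold change divided by the square root of the F statistic. The difference between lines was an interaction with blocks for each library and line. DESeq2 1.42.0 was an alternative. The scripts were tested on simulated data. An exact permutation test of 2 against 2 sums cannot reach 0.05, so values outside the fits over all genes carry no test.

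The members and gene lists were chosen with earlier results of these data known. Genes named in the text were the 4 (G2/M, S phase) or 3 most abundant tested genes of each role of each list, the 10 largest called changes in each direction and the 5 differences between lines of smallest p, the last 2 with at least 100 CPM in the higher arm. Genes outside the lists are named by at most 2 identifiers per direction. Further members of the lists, including Ccnb2, Ccnf, Aurkb, Bub1, Ung, Cdkn1a, Clspn, Cd28 and Tcf7, were added after their values were seen. The 192 listed genes were matched by identifier, 189 of them in a table. No doublet caller was run. Promoter motifs were not analysed here, as no mouse promoter sequences were used.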

Additional observations from a re-analysis of the deposited data

Results flagged for a closer look

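The change between arms differed between EL4 and IVA12 cells by the test of the difference itself (edgeR quasi-likelihood interaction, Benjamini-Hochberg). It was lower in EL4 for 23 S phase genes, 15 G2/M genes and 4 of the abundant tubulin and chromatin genes. The 5 genes with the smallest p were ENSMUSG00000058773, whose log2 fold changes differed by -2.45 (EL4 minus IVA12), Hmgb2 by -1.90, ENSMUSG00000040204 by -2.51, Rrm2 by -3.31 and ENSMUSG00000092341 by 1.22. The last fell in IVA12, from 15521 to 8395 CPM at 150 and from 12847 to 9499 at 300 cells per µl, and rose in EL4, from 2745 to 3635 and from 1854 to 2979. The arms of the lines spanned different scores and the lines differ in cell type, so the parts of each cannot be told apart.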

How the results depend on the processing

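Each concentration had 1 library, so no paired analysis of the concentrations was possible because they share no replicates; in the separate libraries the median log2 fold change was 1.50 and 1.52 for the G2/M and -0.42 and -0.26 for the S phase list. Among the genes chosen by the naming rule, no called log2 fold change changed sign in an alternative fit that held the gene. The median log2 fold changes of the G2/M and S phase lists also kept their sign. The other called genes were not checked for a change of sign. Against 125 higher and 34 lower genes, the counts were 25 and 1 with DESeq2, 59 and 4 without the library block, 28 and 0 for the top and bottom 10% of the score, 60 and 3 with Ube2c left out of the score, and 10 and 0 with cells thinned before summing (chosen after seeing the data); 22 were lower with no filter and 9 without Cenpf in the score. G2/M genes higher (50) numbered 18, 20 and 7 with DESeq2, the 10% arms and thinned sums. S phase genes lower (7) numbered 1, 0 and 0 there, 2 without the block, 4 with thinned scoring, 11 for a median split, and 15, 4, 2 and 3 without Top2a, Cdc20, Ube2c and Cenpf. G1 calls (3) numbered 0 with DESeq2, the 10% arms and without Ube2c and 1 without the block. T cell calls (0) were 1 with RLE factors and the median split, growth calls (0) were 2 with the median split, and tubulin and chromatin calls (3) were 1, 0 and 0 with DESeq2, no block and the 10% arms. The G2/M median log2 fold change (1.51) was 1.68 with cells weighted equally, 1.62 with DESeq2, 1.54 without the block, 1.29 with thinned scoring, 1.56 from 1000 UMIs, 1.00 for the median split, 1.89 for the 10% arms, 1.54, 1.43, 1.49, 1.48 and 1.58 without Mki67, Top2a, Ccnb1, Cdc20 and Ube2c, and 1.49 with at least 40 UMIs over the 4 sums (added after seeing the data). The S phase median (-0.33) was -0.18 with equal weights and -0.51 without Top2a. Of the line differences, 2 genes in all (1 S phase, 1 G2/M) were called lower in EL4 with DESeq2 and 1 in all (0 and 0) with thinned scoring, and 9 G2/M genes with no filter and 9 with the median split. The ratio of median UMIs at 150 cells per µl was 1.29 for the median split. Thinning and the 10% arms leave fewer UMIs, and the cause of the other shifts was not tested.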
